A study of Mus musculus with 53 samples.

Results

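The genes described here are 43 members of the insulin and leptin signalling pathways, out of 53379 gene identifiers in each count table, followed in the paraventricular nucleus (PVN) and the arcuate nucleus (ARC) of mice without expressed neuronatin (Nnat). The members were chosen by name for what they do, as receptors, adaptors, kinases, transcription factors, feedback genes and hormone-binding proteins, and each matched 1 Ensembl identifier. Total RNA was sequenced from laser-captured nuclei of adult C57BL/6 mice, 13 to 14 weeks old by the protocol in the labels, that were Nnat+/+ or Nnat+/-p, the latter carrying a null allele inherited from the father. Male mice ate chow or a high-fat diet (HFD, 45% in the label), and female mice ate chow. The chow-fed Nnat+/-p mice were split by labelled body weight into a non-obese and an obese class, with males at 27.4 to 34.3 g and 38.8 to 46.5 g, and females at 20.4 to 23.9 g and 31.5 to 33.35 g.

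Insulin and leptin both reach the hypothalamus from the blood and lower food intake. Leptin binds its receptor on hypothalamic neurons, which activates the kinase JAK2 and the transcription factor STAT3. Insulin and insulin-like growth factor receptors act through insulin receptor substrates, phosphoinositide 3-kinase and AKT, which restrain FOXO transcription factors and release mTOR. SOCS3 and the phosphatase encoded by Ptpn1 dampen both receptors, and IRS2 carries signal from both, so these feedback genes are described apart.

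Counts from 49 of 53 libraries were used. Each group held 2 to 6 libraries, with totals from 1479953 to 30228973 counts. Sample 5, Sample 7 and Sample 35 were left out for totals of 2302, 812815 and 271324 counts, and Sample 32 because its labels name both nuclei. Nnat stood at 267 to 566 CPM (counts relative to the library total) in the 21 Nnat+/+ libraries and at 0.32 to 14.4 CPM in the 28 Nnat+/-p libraries, so the genotype labels held. The summed CPM of the PVN genes Avp, Oxt and Sim1 had a median of 905 in male PVN, 1700 in female PVN and 5.63 in male ARC, whereas the sum of the ARC genes Pomc, Agrp and Npy had medians of 3.22, 4.48 and 132. Several libraries stood apart. Sample 15 (male PVN, chow, Nnat+/+) held 1.18 CPM of the PVN genes and 119 CPM of the ARC genes, and Sample 24 (male PVN, HFD, Nnat+/+) held 17.4 CPM of the PVN genes. Sample 43 (ARC, chow, non-obese) held 6.56 CPM of the ARC genes. The labels name no animal, but the labelled weights of male mice recur in the PVN and ARC libraries, so that most ARC libraries match a PVN library of the same genotype, diet and weight. Weights of 42.9 g and 43.9 g appear on opposite genotypes in the 2 nuclei. Sample 39 and Sample 40, both non-obese ARC libraries, carry the same weight of 34.3 g, which a single PVN library has, and may come from 1 animal. Libraries of one group may share technical steps, so p-values measure the spread between libraries. The male PVN, female PVN and male ARC libraries came in separate tables, so nucleus and table cannot be told apart.

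All levels below are CPM scaled by trimmed mean of M values (TMM) over all 49 libraries, and are divided by exon length where genes are compared with each other. Values per kilobase are means of the group means within a nucleus and sex. Irs4 encodes an insulin receptor substrate with a restricted range of tissues. On this scale it ranked number 1 of the 43 members in male ARC with 29 CPM per kilobase, and number 4 in male PVN with 14.5. The kinase gene Akt1 ranked number 1 in male PVN with 17.4 CPM per kilobase, and its target kinases Gsk3b and Gsk3a followed with 16.3 CPM per kilobase each. Ptpn11, a phosphatase that passes receptor signal on, and the adaptor gene Grb2 were close behind, with 13.7 and 13.9 CPM per kilobase. Among the receptor genes, Igf1r and Insr stood at 4.15 and 3.26 CPM per kilobase in male PVN and at 2.24 and 2.92 in male ARC. Lepr, the leptin receptor gene, was near the bottom of the set in male PVN, with 0.562 CPM per kilobase and rank 41, and stood at 2.61 with rank 27 in male ARC. The ARC mean of Lepr was pulled up by Sample 44, at 291 CPM, beside a median of 7.13 CPM over the 20 ARC libraries. Its rank there thus does not describe most libraries. Irs2 reached 8.6 CPM per kilobase in male PVN and 10.1 in male ARC, and was the most abundant of the feedback genes, followed by Ptpn1 at 3.77 and 2.79 and by Socs3 at 0.896 and 1.8. Socs1, another inhibitor of JAK kinases, and Eif4ebp1, a translation repressor that mTOR phosphorylates, each had no count in 18 libraries.

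The first question was whether the members differed between Nnat+/-p and Nnat+/+ mice on chow, or between the weight classes. No member passed an adjusted p of 0.25, the threshold that the study used, in any of 9 comparisons by the quasi-likelihood test of edgeR, with p adjusted over all genes by the method of Benjamini and Hochberg. That is 0 of 43 members in male PVN, beside 0.0256% of all genes for obese against Nnat+/+, 0.0128% for non-obese against Nnat+/+ and 0% for obese against non-obese. It is 0 of 43 in female PVN, beside 0.0129%, 0.00646% and 0% of all genes in the same order. In male ARC it is 0 of 42, since Eif4ebp1 did not pass the filter on low counts, beside 0.0205%, 0.0136% and 0.00682%. DESeq2 and limma voom also called 0 members in each. In the same order, DESeq2 called 38, 2 and 0 of 34476 genes in male PVN. It called 168, 255 and 62 of 27820 in female PVN and 2, 1 and 1 of 30250 in male ARC. Limma voom called 2, 1 and 0 of 15618 in male PVN. It called 9, 3 and 0 of 15485 in female PVN and 2, 1 and 1 of 14658 in male ARC. At an unadjusted p under 0.05 by edgeR there were 0 or 1 members in 8 of these comparisons, beside 1.66% to 4.00% of all genes. In the other one, obese against non-obese in male ARC, there were 4 of 42 members, beside 4.25% of all genes.

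Those 4 genes were Lepr, Irs4, Prkaa2 and Igfbp5, named because their unadjusted p was under 0.05. Irs4 stood at 156, 161, 159 and 170 CPM in the 4 obese ARC libraries and at 156, 110, 103 and 126 CPM in the 4 non-obese ones. A library of each class was at 156 CPM and the others did not overlap, and the log2 difference was 0.38 (SE 0.17, adjusted p = 0.999 by edgeR). Prkaa2, a catalytic subunit of the energy sensor AMPK, differed by 0.65 (SE 0.28) on the log2 scale, and Igfbp5, a binding protein for insulin-like growth factors, by -0.49 (SE 0.20). Stat5b, a transcription factor activated by cytokine and growth hormone receptors, had the lowest unadjusted p of the members in male PVN for obese against Nnat+/+, at a log2 difference of -0.67 (SE 0.29, adjusted p = 1 by edgeR). In female PVN the same gene differed by 0.71 (SE 0.31, adjusted p = 1 by edgeR) in non-obese against Nnat+/+, in the other direction. The median log2 difference of the members lay between -0.07 and 0.11 in all 9 comparisons.

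**Figure D1:**
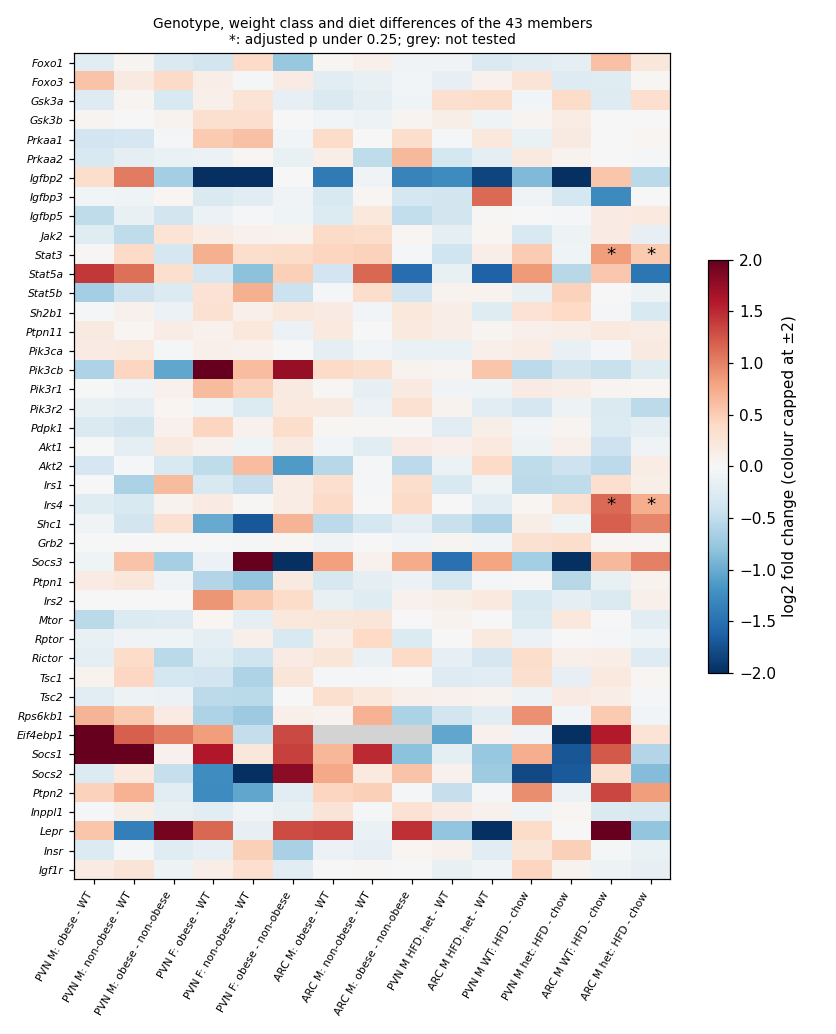
Log2 fold changes of the 43 members (rows, ordered by role) in 15 comparisons of genotype, weight class and diet (columns), with colour capped at 2 in either direction. Asterisks mark an adjusted p under 0.25; they appear only for Irs4 and Stat3 in the 2 diet comparisons of male ARC, while the darkest colours, such as those of Lepr, Socs3 and Igfbp2, carry none.

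The second question was how the members differed between the diets. The Nnat+/+ males weighed 31.4 to 33.5 g on chow in both nuclei. On HFD they weighed 37.4 to 43.9 g in the ARC libraries and 37.4 to 42.9 g in the PVN libraries. Diet and body weight thus cannot be told apart in Nnat+/+ mice. In male ARC, Irs4 and Stat3 were higher on HFD than on chow. Stat3 encodes the main transcription factor that leptin activates in these neurons. In Nnat+/+ mice Irs4 stood at 96.4 and 148 CPM in the 2 chow libraries and at 203 to 407 CPM in the 6 HFD libraries, with a median of 247. The groups did not overlap, and Irs4 rose by 1.14 on the log2 scale (SE 0.24, 2.2-fold, adjusted p = 0.0604 by edgeR). Stat3 stood at 43.2 and 47.1 CPM on chow and at 65.3 to 99.3 CPM on HFD, with a median of 81.9. These groups did not overlap either, and Stat3 rose by 0.84 (SE 0.21, 1.78-fold, adjusted p = 0.142 by edgeR). They were the 2 of 43 members that passed, beside 1.16% of the 15753 genes tested. Of all genes 0.495% were called higher and 0.66% lower, and no member fell. DESeq2 and limma voom called both as well, with Lepr added by DESeq2 and Akt1 by limma voom. The 3 members of each stood among 358 of 35231 genes by DESeq2 and 700 of 15753 by limma voom. The median log2 difference was 0.03 over the members and 0.02 over all genes. As in all these bulk libraries, more RNA per cell and more cells of a type that expresses the gene cannot be told apart.

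The chow group of Nnat+/+ mice held 2 libraries, and the direction was kept without either. Without Sample 33 the log2 difference of Irs4 was 0.87 and that of Stat3 0.79. Without Sample 34 they were 1.49 and 0.91. Each of these fits had 1 chow library of Nnat+/+ mice, which was assumed to vary like the other groups. Such fits cannot show whether the calls hold, so the calls rest on 2 chow libraries. Without Sample 46, the HFD library with 407 CPM of Irs4, Irs4 passed at 0.99 (adjusted p = 0.115 by edgeR) and Stat3, at 0.78, did not (adjusted p = 0.264). In that fit 50 of 15695 genes passed, against 182 of 15753 with all libraries.

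The Nnat+/-p mice gave another diet contrast in other libraries. This comparison, HFD against the mean of the non-obese and obese chow groups, was added after the values of the Nnat+/+ mice had been seen. Its chow mice weighed 27.4 to 34.3 g and 38.8 to 46.5 g, and its HFD mice 38.2 to 43.1 g. Diet and weight are thus mixed otherwise than in Nnat+/+ mice. Irs4 stood at 255, 277, 247 and 157 CPM in the 4 HFD libraries, against 103 to 170 CPM in the 8 chow libraries. Only Sample 53, with 157 CPM, lay within the chow range, and Irs4 rose by 0.73 (SE 0.17, 1.66-fold, adjusted p = 0.0193 by edgeR). Stat3 stood at 105, 90.6, 83.1 and 79.5 CPM on HFD and at 45.4 to 72.5 CPM on chow, with no overlap, and rose by 0.52 (SE 0.15, 1.44-fold, adjusted p = 0.0741 by edgeR). Again these were the 2 of 43 members that passed, beside 3.87% of all genes (2.98% higher and 0.889% lower). Irs4 passed in all 12 fits that left out 1 library, and Stat3 in 11 of 12, the exception being the fit without Sample 50, where it stood at 0.45 (adjusted p = 0.435 by edgeR). With the counts of Sample 39 and Sample 40 summed as 1 library, Irs4 stood at 0.71 (adjusted p = 0.0261 by edgeR) and Stat3 at 0.55 (adjusted p = 0.0517). The interaction of genotype and diet, which takes the obese group as the chow Nnat+/-p mice, did not pass for Irs4 (-0.60, SE 0.30, adjusted p = 1 by edgeR) or Stat3 (-0.30, SE 0.27, adjusted p = 1). It called 0 of 43 members in ARC, beside 0.0127% of all genes, with 1 member, Lepr, at an unadjusted p under 0.05, beside 4.04% of all genes.

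**Figure D2:**
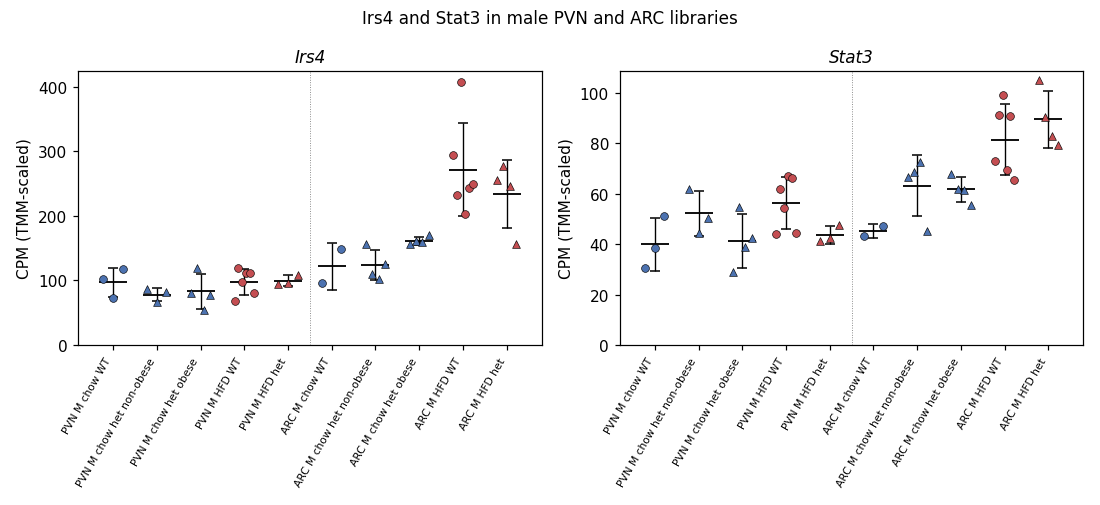
CPM of Irs4 (left) and Stat3 (right) in each male library by group, with circles for Nnat+/+, triangles for Nnat+/-p (het), blue for chow, red for HFD, and bars for the mean and SD. In ARC the HFD libraries of Nnat+/+ mice lie between 203 and 407 CPM for Irs4 and between 65.3 and 99.3 CPM for Stat3, above both chow libraries; in PVN the diets overlap for both genes.

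Marker levels differed along with the diet in ARC. All 4 matched ARC neuron markers (Pomc, Agrp, Npy and Ghrh) were detected in every group, and their summed level was 42.3 to 42.4 CPM on chow and 60.8 to 579 CPM on HFD in Nnat+/+ mice. In Nnat+/-p mice it was 8.8 to 105 CPM in non-obese, 105 to 152 CPM in obese and 145 to 347 CPM in HFD libraries. The 4 markers of neighbouring hypothalamus (Nr5a1, Fezf1, Pmch and Hcrt) summed to 132 to 167 CPM on chow and 2.79 to 88.3 CPM on HFD in Nnat+/+ mice, and to 57.3 to 224 CPM on chow and 13.5 to 125 CPM on HFD in Nnat+/-p mice. Other markers had separate ranges too. Oligodendrocyte markers summed to 681 to 764 CPM on chow and 226 to 579 CPM on HFD in Nnat+/+ mice, and Gfap, an astrocyte gene, stood at 33.8 and 37 CPM on chow and 55.6 to 250 CPM on HFD, although the sum of 4 astrocyte markers overlapped (609 to 668 and 610 to 800 CPM). In Nnat+/-p mice the sum of Avp, Oxt and Sim1 was 0.437 to 9.14 CPM on chow and 16.2 to 59 CPM on HFD. With the PVN markers Crh and Trh added, the chow sums reached 56.8 CPM in non-obese and 28.7 CPM in obese libraries. The separate ranges were thus shown for Avp, Oxt and Sim1 only. The part of all these markers in the differences of Irs4 and Stat3 was not tested. Covariates for the arcuate and ventromedial contents were tried after the data were seen, each the log2 summed CPM in a library. With Nr5a1 and Fezf1 as covariate the rise of Irs4 was 0.82 in Nnat+/+ mice (adjusted p = 0.763 by edgeR) and 0.64 in Nnat+/-p mice (adjusted p = 0.0291). With the same covariate the rise of Stat3 was 0.99 (adjusted p = 0.275 by edgeR) and 0.58 (adjusted p = 0.0362). With Pomc, Agrp and Npy as covariate Irs4 stood at 0.89 (adjusted p = 0.309 by edgeR) and 0.51 (adjusted p = 0.595), and Stat3 at 0.53 (adjusted p = 0.541) and 0.26 (adjusted p = 0.822). Both differences thus kept their direction. They lost their call with either covariate in Nnat+/+ mice, and with the arcuate markers in Nnat+/-p mice. Over all 15753 genes the calls in Nnat+/+ mice went from 182 to 1 with the ventromedial and to 29 with the arcuate covariate. In Nnat+/-p mice they went from 609 to 575 and to 54, so calls were lost among all genes as well. Both covariates had separate ranges by diet in Nnat+/+ mice. The arcuate sum was 39.1 to 39.5 CPM on chow and 53.6 to 550 CPM on HFD. The ventromedial sum was 53.9 to 95.6 CPM on chow and 2.48 to 43.8 CPM on HFD. These fits thus cannot tell marker content from diet in Nnat+/+ mice.

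Irs4 lies on chromosome X at 141710998 to 141725263 and Stat3 on chromosome 11 at 100885098 to 100939540, both on the minus strand (GRCm38). An antisense gene, Gm15295, covers 383 bases of the Irs4 exons, and Stat5a covers 72 bases of the Stat3 exons from the opposite strand. How the counting used strand was not given in the sources used here, so reads in those stretches cannot be told apart. The sequences before the RefSeq starts of Irs4, Stat3 and Socs3 are shown because Irs4 and Stat3 moved together in ARC and Socs3 is the feedback gene that STAT3 is known to induce. They come from RefSeq (GRCm38.p6), run 5′ to 3′ on the minus strand, and leave out bases that an annotated exon covers. Capitals mark a STAT motif, TTCNNNGAA, which is its own reverse complement. The Socs3 window precedes the start that RefSeq gives but lies inside the longer Socs3 gene model of GENCODE, and the bases next to that start are among those left out. The windows are chrX:141725264-141725467 for Irs4, chr11:100939541-100939790 for Stat3 and chr11:117969452-117969616 for Socs3.
Irs4: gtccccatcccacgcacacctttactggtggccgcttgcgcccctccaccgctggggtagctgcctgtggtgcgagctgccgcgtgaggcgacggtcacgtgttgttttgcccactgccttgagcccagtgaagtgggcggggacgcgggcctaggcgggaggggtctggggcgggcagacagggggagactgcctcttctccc
Stat3: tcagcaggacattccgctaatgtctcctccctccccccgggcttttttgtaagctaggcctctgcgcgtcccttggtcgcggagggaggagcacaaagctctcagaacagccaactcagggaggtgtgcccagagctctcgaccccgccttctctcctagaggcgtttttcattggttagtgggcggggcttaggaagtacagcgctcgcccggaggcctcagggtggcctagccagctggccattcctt
Socs3: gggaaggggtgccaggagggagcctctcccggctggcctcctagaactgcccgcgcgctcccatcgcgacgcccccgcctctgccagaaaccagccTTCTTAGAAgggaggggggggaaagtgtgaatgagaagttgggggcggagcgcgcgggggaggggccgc

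The STAT motif was found in the Socs3 window and in neither of the others. Within 250 bases before the RefSeq start, 3 of the 39 members with a window held it (Socs3, Akt2 and Mtor), which is 7.69%, beside 8.13% of 27025 genes. A FOXO motif, TGTTTAC on either strand, was found for 1 member, Akt1, beside 3.54% of all genes. The share of members with either motif was thus close to that of all genes, and a match marks letters only, not binding.

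In male PVN the same diet called no member. For Nnat+/+ mice 0 of 43 passed, beside 1.43% of all genes, and 4 had an unadjusted p under 0.05, beside 10.3% of all genes. DESeq2 called 1, among 472 of 38480 genes, and limma voom 0, among 334 of 17576. Socs2, an inhibitor of growth hormone signalling, fell just outside the threshold. It stood at 20.8, 8.41 and 4.7 CPM on chow and at 0.586 to 4.98 CPM on HFD, with a median of 3.3. The lowest chow library was Sample 15 and the highest HFD library Sample 24, which overlapped, and the log2 difference was -1.80 (SE 0.58, adjusted p = 0.254 by edgeR). Socs2 passed by DESeq2, under another scaling (relative log expression), and without Sample 14, Sample 15 or Sample 24. With both Sample 15 and Sample 24 left out, Stat3 and the adaptor gene Irs1 passed too, as 3 members beside 974 of 19844 genes. Stat3 itself stood at 30.4, 38.5 and 51.1 CPM on chow and at 44 to 66.9 CPM on HFD, with a median of 58.3. These groups overlapped through Sample 15, at 51.1 CPM, and the log2 difference was 0.51 (SE 0.23, adjusted p = 0.433 by edgeR). Irs4 was at 102, 72.1 and 117 CPM on chow and at 67.5 to 119 CPM on HFD, which overlapped throughout (0.04, SE 0.22). Rps6kb1, the kinase gene downstream of mTOR, differed by 0.91 (SE 0.32, adjusted p = 0.295 by edgeR) and Igf1r by 0.44 (SE 0.21, adjusted p = 0.48). For Nnat+/-p mice 0 of 43 passed, beside 0.239% of all genes, and 5 had an unadjusted p under 0.05, beside 7.05% of all genes. Among them were Socs2 at -1.67 (SE 0.64, adjusted p = 0.612 by edgeR), Igfbp2 at -2.84 (SE 1.06) and Insr at 0.48 (SE 0.22). DESeq2 called 3 there (Socs2, Socs3 and Igfbp2), among 475 of 38480 genes, and limma voom 0, among 69 of 17576.

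On HFD, Nnat+/-p and Nnat+/+ mice were then compared. No member passed in PVN (0 of 43, beside 0.00569% of all genes, with 0 at an unadjusted p under 0.05) or in ARC (0 of 43, beside 0.0127%, with 2 at an unadjusted p under 0.05, as were 4.54% of all genes). DESeq2 and limma voom called 0 members in either nucleus, and 0 in either interaction. For genotype DESeq2 called 1 of 38480 genes in PVN and 1 of 35231 in ARC. Limma voom called 1 of 17576 and 2 of 15753. For the interactions, in the same order, DESeq2 called 7 and 0 genes and limma voom 0 and 0. The interaction in PVN called 0 of 43, beside 0% of all genes, and 2 members, Stat5b and Rps6kb1, had an unadjusted p under 0.05, beside 4.56% of all genes. In ARC the 2 members were Lepr and Igfbp3. Igfbp3, a binding protein for insulin-like growth factors, differed by 1.13 (SE 0.53).

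Lepr was set by single libraries. In ARC on HFD it stood at 7.29 to 291 CPM in the 6 Nnat+/+ libraries, with a median of 14.2, and at 5.96, 4.16, 8.39 and 2.47 CPM in the 4 Nnat+/-p libraries. Sample 44 alone was at 291 CPM (647 counts), the others of its group lay at or below 30.4 CPM, and the groups overlapped between 7.29 and 8.39 CPM. The log2 difference was -3.50 (SE 0.89, adjusted p = 0.92 by edgeR), and -1.57 without Sample 44. Against the chow libraries of Nnat+/+ mice, at 8.27 and 3.24 CPM, Lepr differed by 3.33 (SE 1.19, adjusted p = 0.347 by edgeR), and by 1.41 without Sample 44. Testing every gene with a total count over 1 called Lepr in ARC for genotype on HFD and in the interaction. It was also called for HFD against chow, higher on HFD in Nnat+/+ and lower in Nnat+/-p mice (-0.79, adjusted p = 0.24 by edgeR). With the filter on low counts, the difference in Nnat+/-p mice was -0.79 (adjusted p = 0.817 by edgeR). It was 0.06 without Sample 36, an obese chow library.

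The same held at the higher levels elsewhere. Sample 36, an obese ARC library, held 44.6 CPM against 2.86 to 6.97 CPM in its group, and the difference from non-obese of 1.46 (SE 0.64, adjusted p = 0.999 by edgeR) became -0.19 without it. Sample 16, an obese PVN library, held 17.1 CPM against 1.84 to 2.82 CPM. Sample 24 held 15.6 CPM and Sample 15 held 10.6 CPM, the libraries with few PVN markers. Leprot, the neighbour of Lepr at its locus, was at 7.2 CPM in Sample 44 and 5.35 CPM in Sample 36, within the range of 2.06 to 10.6 CPM over ARC. In female PVN, Lepr had 0 counts in 3 of 10 libraries and reached at most 3.68 CPM.

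**Figure D3:**
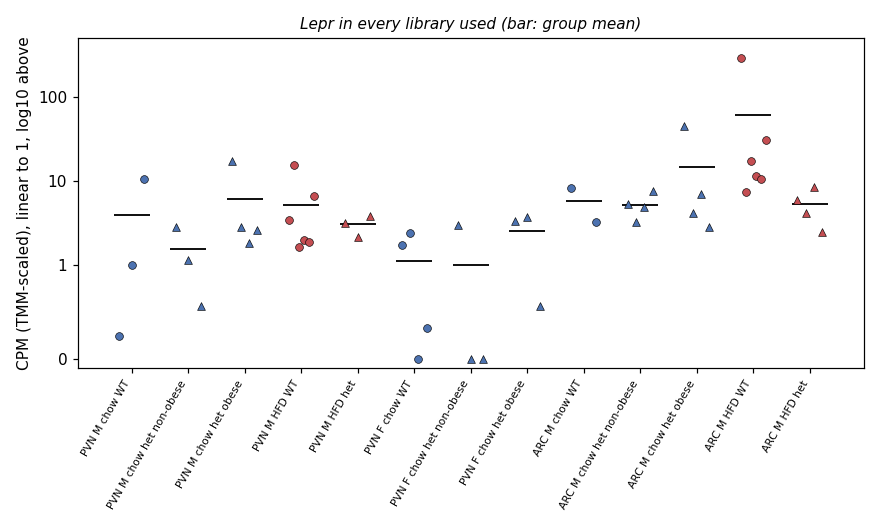
CPM of Lepr in each of the 49 libraries by group, on an axis that is linear to 1 and logarithmic above, with circles for Nnat+/+, triangles for Nnat+/-p (het), blue for chow, red for HFD, and bars for the mean. Sample 44 at 291 CPM, Sample 36 at 44.6 CPM and Sample 16 at 17.1 CPM lie apart from their groups and pull the means up.

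The feedback genes Socs3, Ptpn1 and Irs2 passed in no comparison of genotype, weight class or diet by edgeR. Socs3 alone was called by other tools, by limma voom for diet in ARC and by DESeq2 for diet in PVN, both in Nnat+/-p mice. Socs3 was a gene of few counts, at 0.412 to 8.03 CPM in male PVN, 0 to 24.7 CPM in female PVN and 0.905 to 10.2 CPM in male ARC. In ARC of Nnat+/-p mice it stood at 5.96, 9.24, 9.15 and 10.2 CPM on HFD and at 0.905 to 8.01 CPM on chow. The diets overlapped, and the log2 difference was 1.01 (SE 0.50, adjusted p = 0.498 by edgeR). In PVN of Nnat+/-p mice Socs3 lay the other way, at 0.412, 0.537 and 1.02 CPM on HFD and 0.528 to 8.03 CPM on chow, again with overlap (-2.41, SE 1.02, adjusted p = 0.655 by edgeR). In ARC of Nnat+/+ mice it stood at 2.76 and 3.53 CPM on chow and 1.8 to 9.31 CPM on HFD (0.64, SE 0.74).

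Ptpn1 was at 13.4 to 30.9 CPM in male PVN and 6.75 to 22 CPM in male ARC. Its log2 differences in male ARC lay within their errors of zero, at -0.15 (SE 0.35) for HFD against chow in Nnat+/+ mice, -0.03 (SE 0.28) for Nnat+/-p against Nnat+/+ on HFD and -0.32 (SE 0.39) for obese against Nnat+/+ on chow. Irs2 was the steadiest of these genes, at 35.1 to 79 CPM in male PVN and 43.7 to 77.2 CPM in male ARC. In male PVN its differences on chow were 0.00 (SE 0.28) for obese and 0.01 (SE 0.30) for non-obese against Nnat+/+. In female PVN it stood at 57.4, 14.1, 23.7 and 61.5 CPM in Nnat+/+ and at 77, 56.9 and 84.4 CPM in obese libraries. These overlapped, and the log2 difference was 0.89 (SE 0.44, adjusted p = 1 by edgeR).

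**Figure D4:**
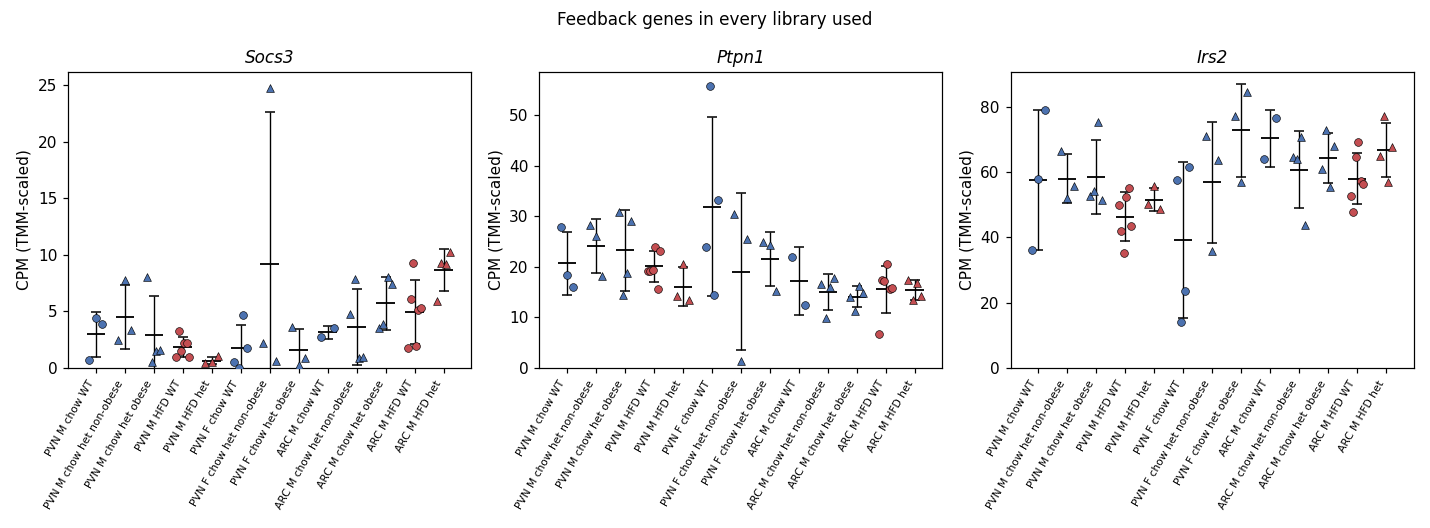
CPM of Socs3, Ptpn1 and Irs2 in each library by group, with circles for Nnat+/+, triangles for Nnat+/-p (het), blue for chow, red for HFD, and bars for the mean and SD. Groups overlap within each nucleus for Ptpn1 and Irs2, and Socs3 in PVN on HFD stays at or below 3.27 CPM while in ARC on HFD it reaches 10.2 CPM.

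Between the nuclei, with the sequencing table changing along with the nucleus, 17 of 43 members passed in males, 9 higher and 8 lower in ARC than in PVN, beside 34.4% of the 21400 genes tested. The shares of all genes were 13.8% higher and 20.5% lower, so the members are near the background. The median log2 difference of all genes was -0.13, so values relative to it are 0.13 higher than those given. Among the receptor genes Lepr was 1.58 higher (SE 0.42, adjusted p = 0.00581 by edgeR) and Igf1r 0.85 lower in ARC, as -0.85 (SE 0.11, adjusted p = 1.18e-08), while Insr differed by -0.13 (SE 0.11). Igf1r spanned 44.2 to 99.3 CPM in the 19 PVN libraries, with a median of 73.4, and 22.6 to 56.4 CPM in the 20 ARC libraries, with a median of 36.6. The ranges overlapped between 44.2 and 56.4 CPM, where Sample 15 and Sample 24 were the lowest of PVN. Lepr was 1.19 higher without Sample 44 (adjusted p = 0.0193 by edgeR) and 2.26 higher without Sample 15 and Sample 24 (adjusted p = 6.6e-05).

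Of the JAK-STAT genes, Stat3 was higher in ARC (0.54, SE 0.10) and Stat5b lower (-0.30, SE 0.11), and Jak2, Stat5a, Sh2b1 and Ptpn11 did not pass. Irs4 was 0.95 higher (SE 0.10, 1.93-fold, adjusted p = 2.17e-10 by edgeR), with 54.8 to 120 CPM in PVN and 96.4 to 407 CPM in ARC. In the PI3K arm Pdpk1, which phosphorylates AKT, was 0.41 higher (SE 0.09) and Pik3r1, a regulatory subunit, 0.28 higher (SE 0.08), and the AKT and catalytic subunit genes did not pass. The complex that restrains mTOR was lower in ARC, with Tsc1 at -0.27 (SE 0.09) and Tsc2 at -0.28 (SE 0.10), or -0.135 and -0.15 relative to the median of all genes, and so was the transcription factor gene Foxo3 (-0.23, SE 0.12). The feedback genes differed among themselves. Socs3 was 1.16 higher (SE 0.35) and Irs2 0.26 higher (SE 0.10) in ARC, whereas Ptpn1 was lower (-0.38, SE 0.14). Socs2 and the adaptor gene Shc1 were lower, at -0.75 (SE 0.28) and -0.76 (SE 0.38), and Igfbp3 and Igfbp5 were higher, at 1.23 (SE 0.32) and 0.38 (SE 0.17). Neither AMPK gene, Prkaa1 or Prkaa2, passed. A limma voom fit with libraries of the same genotype, diet and weight as blocks called 18 members, without Socs2 and Foxo3 and with Jak2, Stat5a and Igfbp2. Over all genes that fit called 6640 of 21400. Stat5a and Igfbp2 were also called by limma voom without blocks.

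**Figure D5:**
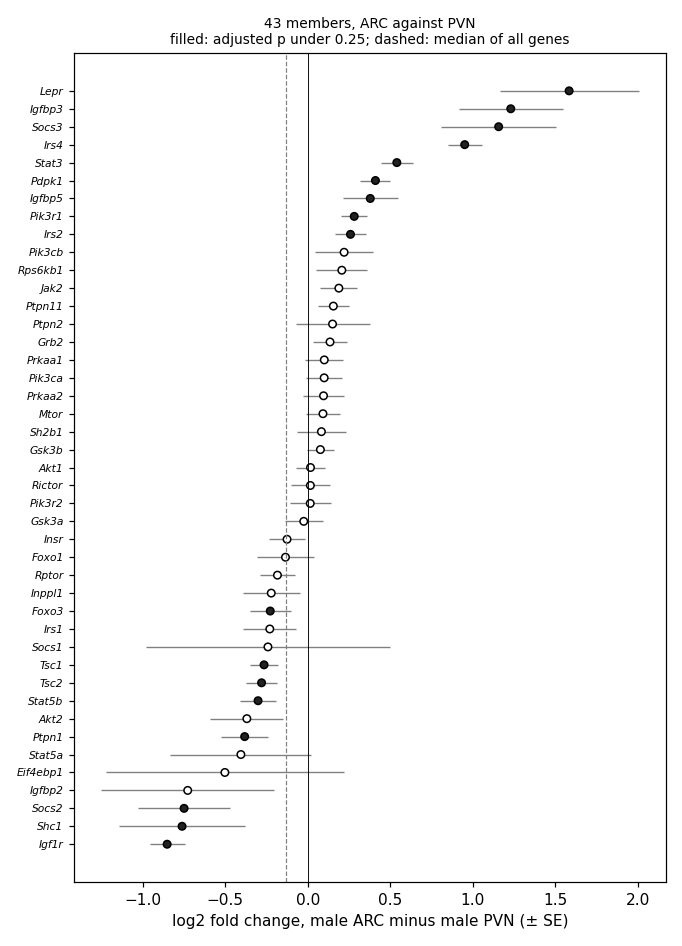
Log2 fold change of each member, male ARC minus male PVN, with SE bars; filled points have an adjusted p under 0.25 and the dashed line is the median of all genes at -0.13. Lepr, Igfbp3, Socs3 and Irs4 lie at the upper end and Igf1r, Shc1, Socs2 and Igfbp2 at the lower end, of which Igfbp2 did not pass.

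Other genes of the same pathways, from a list of 56 named for their roles, were rarely called for genotype or diet. Their log2 differences spanned -5.22 to 0.86 for diet in PVN of Nnat+/-p mice and -1.39 to 4.63 in ARC of Nnat+/+ mice. The medians were 0.008 and -0.04. Igf2r, a receptor that clears insulin-like growth factor 2, was the 1 of 53 tested that passed for HFD against chow in PVN of Nnat+/+ mice, beside 1.43% of all genes (0.85, SE 0.23, adjusted p = 0.132 by edgeR), and none of the list passed in the other comparisons of genotype, weight class or diet. Between nuclei 18 of 55 passed, 12 higher and 6 lower in ARC, beside 34.4% of all genes. Among those higher were Deptor, an inhibitor of mTOR, with a log2 difference of 1.46 (SE 0.20), and the ERK pathway kinase gene Map2k1, with 0.59 (SE 0.10).

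Over the 20 ARC libraries, the gene whose log CPM followed Socs3 most closely was Ldb1 (Pearson r of 0.822), that nearest to Irs2 was Nos1 (0.739) and that nearest to Lepr was Gm37437 (0.756), each out of 15753 genes. These libraries share groups and depth, and the values only describe likeness.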

How the data were processed

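Total RNA from laser-captured PVN and ARC was made into stranded libraries that were not selected for poly(A), and the authors deposited raw read counts per Ensembl gene in 3 tables, for female PVN, male PVN and male ARC. STAR 2.5.0a and GRCm38 are named in the submitters' processing notes, and the counting tool and its strand setting were not given in the sources used here. Of 53 libraries, 49 were used. The 4 left out had low totals or labels that conflict, and 0 columns could not be mapped to a sample. Weight classes followed the labelled weight and the bounds of the study.

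Counts were tested as deposited with edgeR 4.0.16 (R 4.3.3), using filterByExpr with a minimum count of 10, TMM scaling and quasi-likelihood tests, with Benjamini-Hochberg adjustment over all genes tested and a call at an adjusted p under 0.25. Chow comparisons were fitted per table over the chow groups, and diet comparisons over all male groups of a nucleus. Standard errors are the log2 fold change divided by the root of F. DESeq2 1.42.0 and limma 3.58.1 (voom with sample quality weights), other scalings and filters, and leaving out each library were alternatives. Scripts were tested on simulated data. All 43 members could be named, other pathway genes where called. Symbols matched 53274 of 53379 identifiers. The members and lists were chosen with earlier results of these data known, and the marker covariates and the diet comparison in Nnat+/-p mice were added after seeing the data.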

Additional observations from a re-analysis of the deposited data

Results flagged for a closer look

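In 28 of 301 combinations of a member and a group of 4 to 6 libraries, 1 library lay far from the others by Dixon's criterion, which chance meets in about 1 in 20 groups. All values are CPM.

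Lepr was high in Sample 44 (ARC, HFD, Nnat+/+) at 291, in Sample 36 (ARC, obese) at 44.6, in Sample 16 (PVN, obese) at 17.1 and in Sample 24 (PVN, HFD, Nnat+/+) at 15.6. In Sample 44, Akt1 at 72.5 and Igfbp2 at 14.9 were high too and Ptpn1 at 6.75 was low. In Sample 16, Socs3 was high at 8.03, and in Sample 36, Mtor was low at 79.8. In the same HFD group of ARC, Stat5a was high at 9.33 in Sample 49 and Eif4ebp1 at 3.42 in Sample 46.

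Among the non-obese ARC libraries, Sample 40 was high for Igf1r at 56.4, Pik3r2 at 43.1 and Rptor at 95.8, Sample 39 for Socs1 at 6.53, and Sample 43, the library with few ARC markers, was low for Foxo1 at 7.52. Among the obese ones, Sample 42 was high for Sh2b1 at 55.2 and Grb2 at 49.5, and Sample 41 for Socs1 at 3.36. In ARC of Nnat+/-p mice on HFD, Sample 53 was high for Socs1 at 2.8 and Mtor at 107, Sample 51 for Inppl1 at 13.9 and Sample 50 for Igfbp2 at 3.14.

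In PVN, Sample 20 (obese) was high for Irs2 at 75.3 and Socs1 at 10.7, and Sample 17 (obese) for Mtor at 93.5. Sample 1 (female, Nnat+/+) was high for Socs1 at 0.791, with 0 in the others, and for Prkaa2 at 26.5.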

How the results depend on the processing

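Of 293 alternative counts of called members, 270 stayed within 1.5 times the count given. Alternatives for single members covered Lepr, Socs3, Ptpn1, Irs2 and the called members, or those of lowest p for ARC against PVN. Of these 1317, 18 lost a call, 11 gained a call and 53 moved an uncalled difference by more than its SE. None reversed the sign of a call, and 91 differences that were not called changed sign. At an adjusted p under 0.05 the calls for HFD against chow in ARC were 0 in Nnat+/+ mice and 1 (Irs4) in Nnat+/-p mice. These stood beside 5 and 195 of 15753 genes. For ARC against PVN there were 11, beside 3376 of 21400 genes. With the low-total libraries kept, 3 members (Lepr, Stat5a and Inppl1) passed in female PVN for obese against Nnat+/+, 2 for obese against non-obese, and 1 for diet in ARC of Nnat+/-p mice, among 936 and 622 of 15492 and 346 of 14402 genes. For HFD against chow in PVN of Nnat+/+ mice, 1 passed under relative log expression scaling, 1 by DESeq2, 2 with every gene of total count over 1 and 3 without Sample 15 and Sample 24. In that order, 303 of 17576, 472 of 38480, 1134 of 38480 and 974 of 19844 genes passed. DESeq2 called 3 for diet in PVN of Nnat+/-p mice, beside 475 of 38480 genes. With every gene of total count over 1, 1 member (Lepr) passed in ARC for genotype on HFD and 1 for the interaction. All genes called there were 64 and 20 of 35231. With the ventromedial marker covariate 0 passed for diet in ARC of Nnat+/+ mice, beside 1 of 15753 genes. With the arcuate covariate 0 passed in Nnat+/+ and 0 in Nnat+/-p mice, beside 29 and 54 of 15753 genes. The causes of these changes were not tested. Leaving out each library in turn gave 0 to 3 calls for diet in ARC of Nnat+/+ mice, 1 to 3 in ARC of Nnat+/-p mice, 0 to 2 in PVN of Nnat+/+ mice and 18 for ARC against PVN without Sample 43 or Sample 44, and 0 in the other 14 comparisons. Over the alternatives other than the stricter threshold and leaving out 1 library, the genes called ranged from 213 to 1134 for diet in PVN of Nnat+/+ mice, from 42 to 475 in PVN of Nnat+/-p mice, from 1 to 700 in ARC of Nnat+/+ mice and from 54 to 1023 in ARC of Nnat+/-p mice. Relative log expression moved the median of all genes by -0.068 to 0.021 on the log2 scale, and DESeq2, which had another set of genes, by -0.275 to 0.070. Replicate numbers pair no libraries. A fit for ARC against PVN that took libraries of the same genotype, diet and labelled weight as blocks, 16 of which held both nuclei, had a correlation within blocks of 0.07 and called 18 members, losing Socs2 and Foxo3 and adding Jak2, Stat5a and Igfbp2. Over all genes that fit called 6640 of 21400. Genes of few counts, such as Socs1, Socs3 and Lepr, are limited by depth.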
